A study of Mus musculus with 18 samples.

Results

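The outer flanks of the mitoferrin locus are the DpnII fragments of mouse chromosome 14 (mm9) whose midpoints lie from 69000000 to 69799999, here the left flank, or from 70095641 to 71000000, the right flank. They hold 4313 of the 303591 DpnII fragments of the chromosome, 2067 on the left and 2246 on the right, chosen by position alone. The values are NG Capture-C counts from the *Slc25a37* viewpoint, a DpnII fragment at the promoter of *Slc25a37* (mitoferrin 1) from 69902454 to 69903469. The left flank lies 103 to 903 kb from it and the right flank 193 to 1097 kb, beyond *Loxl2*.

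Ter119+ erythroid cells came from spleens of adult C57BL/6 mice given phenylhydrazine, which destroys red cells and so fills the spleen with their precursors. Experiment 1 compared WT with ∆44/48 cells, which lack the CTCF sites HS+44 and HS+48 downstream of the α-globin genes. Experiment 2 compared WT with ∆θ1, ∆θ2 and ∆θ1/θ2 cells, which lack the CTCF site at one or at both θ-globin genes. All these sites are on chromosome 11, so no flank sequence was edited in any group, and mouse age and treatment were shared by all 18 samples (6 groups, 3 samples each). The labels give neither mouse identifiers nor sex, and contact counts hold no measure of the marker genes of erythroid cells.

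Mitoferrin carries iron into mitochondria for haem synthesis, and its gene is highly active in erythroid precursors. Contacts of a promoter fall with distance along the chromosome, and the fall is often uneven, because topologically associating domains restrict contact and because active, gene-rich stretches tend to meet other active stretches. Such stretches are usually rich in G and C. The flanks differed in what they hold. In the left flank, 6 protein-coding genes covered 15.3% of the bases and the GC content was 40.7%. In the right flank, 23 protein-coding genes covered 76.9% and the GC content was 48.0%. DpnII cut them about equally, into 2.58 and 2.48 fragments per kb.

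Ends of the viewpoint, of the most counted fragment of each flank and of a further left fragment are shown with the DpnII site that bounds them, GATC, in capitals. Each run is 200 bases of the forward strand of mm9 (NCBIM37), outside annotated protein-coding genes. The first is the viewpoint end away from the *Slc25a37* gene body, chr14:69903270-69903469. The second opens the most counted fragment of the left flank, chr14:69799183-69799382, at its inner edge. The third closes the most counted fragment of the right flank, chr14:70132511-70132710, which spans the start of *Chmp7*, and the fourth opens the flank fragment called lower in ∆θ1/θ2, chr14:69758141-69758340.
*Slc25a37* viewpoint: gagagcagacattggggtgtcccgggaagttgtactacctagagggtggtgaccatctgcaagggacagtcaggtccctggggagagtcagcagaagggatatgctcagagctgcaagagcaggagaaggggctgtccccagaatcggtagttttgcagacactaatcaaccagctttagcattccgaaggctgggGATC
left flank, most counted: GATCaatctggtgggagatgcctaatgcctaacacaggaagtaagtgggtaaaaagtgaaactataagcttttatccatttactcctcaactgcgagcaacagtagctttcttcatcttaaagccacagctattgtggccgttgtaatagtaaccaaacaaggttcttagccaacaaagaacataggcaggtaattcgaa
right flank, most counted: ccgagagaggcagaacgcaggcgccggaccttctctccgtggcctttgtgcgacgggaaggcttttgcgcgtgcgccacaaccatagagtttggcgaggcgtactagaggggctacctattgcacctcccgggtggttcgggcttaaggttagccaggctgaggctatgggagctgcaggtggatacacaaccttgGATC
left flank, called lower: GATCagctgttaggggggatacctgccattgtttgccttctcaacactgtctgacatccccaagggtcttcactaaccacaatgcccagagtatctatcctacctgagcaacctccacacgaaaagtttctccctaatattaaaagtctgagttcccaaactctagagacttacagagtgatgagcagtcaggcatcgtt
The *Chmp7* run holds 14 CpG dinucleotides and has a GC content of 60.5%, against 3 and 40.5% in the left run and 3 and 55% in the viewpoint run. Over its whole length of 975 bp, the *Chmp7* fragment has 6.87 CpG per 100 bp, against 1.67 in the 1315 bp of the left fragment.

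Scaling totals, the chromosome 14 counts more than 1 kb from the viewpoint fragment and outside *Loxl2*, ran from 44505 to 50922 in WT of experiment 1 and from 17870 to 80178 in ∆44/48. They ran from 12173 to 24023 in WT of experiment 2, from 13579 to 42209 in ∆θ2, from 15151 to 28494 in ∆θ1/θ2, and only from 1073 to 3213 in ∆θ1, whose flanks held 26 to 165 counts a sample. Replicate 1 of ∆44/48 stood apart with 1.82 counts per fragment hit on other chromosomes, the highest of all samples. No 2 samples of a group agreed within sampling noise over the 50 kb bins of the chromosome (chi-square per degree of freedom 1.26 to 3.84).

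The viewpoint met the left flank less than the right flank in every sample. In WT of experiment 1 the left flank took 2.44%, 2.63% and 2.42% of the scaling total, and in WT of experiment 2 it took 2.28%, 2.74% and 2.22%. The right flank took 4.07%, 4.70% and 4.74% in WT of experiment 1 and 4.51%, 5.14% and 5.42% in WT of experiment 2. Per length, as counts per kb per 100000 scaling counts (the density used from here on), these are 3.12 ± 0.141 and 3.02 ± 0.354 on the left, and 4.98 ± 0.416 and 5.55 ± 0.518 on the right (mean ± SD, n = 3). The right flank was the higher although it starts farther out. Of its fragments 71.1% held a count in WT of experiment 1, against 44.2% on the left.

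The difference is clearer where both sides lie equally far from the viewpoint, from 193 to 903 kb. In that window WT of experiment 1 held 408, 556 and 464 counts on the left and 1341, 1697 and 1579 on the right, so that the right exceeded the left 3.29-fold, 3.05-fold and 3.40-fold. In WT of experiment 2 the right exceeded the left 3.78-fold, 2.97-fold and 4.42-fold. All 6 WT samples had the lower value on the left, with a mean log2 ratio of left to right of -1.79 ± 0.214 (SD, n = 6; two-sided exact sign-flip permutation test, p = 0.03125, the smallest that 6 samples allow). With the window narrowed by 50 kb at both ends, which leaves out the start of *Chmp7*, the mean was -1.44. Counts on chromosome 14 from viewpoints on chromosomes 7 and 11 also differed between the sides. In WT of experiment 1 they exceeded the rest of the chromosome, per Mb, by a log2 ratio of 1.11 ± 0.135 in the right flank and differed from it by -0.20 ± 0.253 in the left flank (SD, n = 3). The part of mappability, GC content or gene density in the difference between the sides was not tested.

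**Figure D1:**
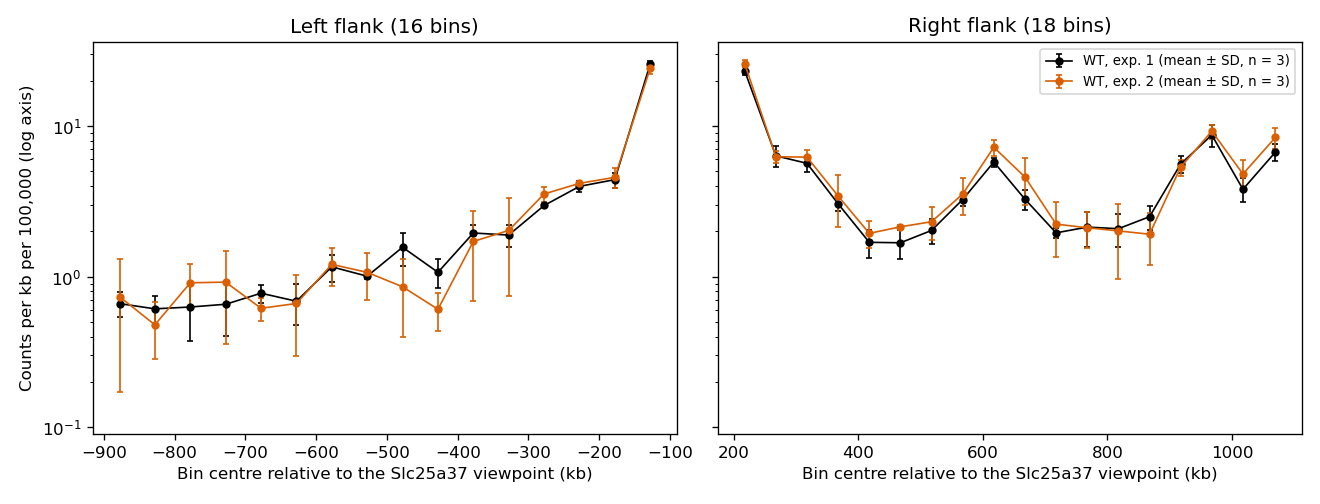
Density in 50 kb bins of each flank in WT of both experiments (points, mean of 3 samples; bars, SD), against the distance of the bin centre from the viewpoint, with a log axis for density. On the left the density falls from 25.9 in the innermost bin to 0.66 in the outermost, in counts per kb per 100000 in experiment 1, while on the right it falls to 1.68 and rises again to 5.77, 8.72 and 6.72.

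Distance described the left flank well and the right flank poorly. A Poisson regression of bin counts on log10 distance gave a decay exponent on the left of -2.20 ± 0.151 in WT of experiment 1 and -2.17 ± 0.124 in WT of experiment 2 (mean ± SD, n = 3), so that contacts fell faster than the inverse square of distance. On the right the exponents were -0.82 ± 0.142 and -0.80 ± 0.0850. The left exponents of the 6 WT samples ran from -2.38 to -2.03 and the right ones from -0.91 to -0.65, without overlap. These exponents rest on few bins near the viewpoint and summarise the right flank incompletely, since its density rose again with distance.

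In the left flank the innermost 50 kb bin, which holds *Nkx2-6*, a homeobox gene, and *Rps2-ps5*, which is named as a ribosomal protein pseudogene, dominated. Its densities in WT of experiment 1 were 26.8, 26.4 and 24.5, and in WT of experiment 2 they were 24.7, 26.1 and 21.9. The next bin outwards had 4.13, 4.99 and 4.10 in WT of experiment 1, and this was the largest fall between neighbouring bins of that side. It was located on WT of experiment 1, with a mean of 5.88-fold. The 15 other samples, which did not locate it, all fell at the same place, by a mean of 5.27-fold in WT of experiment 2 (log2 -2.40 ± 0.320, SD, n = 3). From there the density declined through the bin that holds most of *Stc1*, at 3.98 ± 0.344, to between 0.61 and 0.78 in the 6 outermost bins, which hold the 3 ADAM genes. The largest rise on the left, 1.45-fold at 428 to 478 kb, recurred in only 7 of the 15 other samples.

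In the right flank the innermost bin, over *R3hcc1* and *Chmp7*, had densities of 22.0, 22.9 and 24.8 in WT of experiment 1 and 24.4, 27.0 and 26.6 in WT of experiment 2. It lay 218 kb from the viewpoint at its centre, yet its level was close to that of the innermost left bin at 128 kb. The next bin had 6.16, 5.42 and 7.45 in WT of experiment 1, a fall of 3.68-fold on average, and the 15 other samples also fell there (4.14-fold in WT of experiment 2). Density then sank to 1.68 ± 0.365 within *Pebp4*, a gene of 219 kb that fills 4 bins on its own. It recovered at 3 places, the *Bin3* bin with 5.77 ± 0.412, the *Phyhip* and *Bmp1* bin with 8.72 ± 1.48 and the outermost bin, over *Hr* and *Fam160b2*, with 6.72 ± 0.856. The largest rise, 2.24-fold from the bin of *Slc39a14* to that of *Piwil2* and *Polr3d*, recurred in 14 of the 15 other samples and was 2.86-fold in WT of experiment 2. The *Bin3* and lowest *Pebp4* bins were picked after their values were seen.

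The bins were also described by the gene starts they hold. Leaving out the innermost bin, the 5 right bins without the start of a protein-coding gene had densities of 1.68 to 3.05 in WT of experiment 1, and the 12 with at least 1 start had 1.95 to 8.72, with medians of 2.03 and 4.70. In WT of experiment 2 the medians were 2.14 and 5.07. The ranges overlapped. On the left the 4 bins with a gene start had a median of 0.73 and the 11 without one 1.16, so that the order was opposite there. Over the 17 right bins, density in WT of experiment 1 and counts from viewpoints on other chromosomes in the same samples had a Spearman correlation of 0.78, and over 15 left bins it was 0.13. With density in WT of experiment 2 and the same counts the sides were closer, at 0.64 on the right and 0.45 on the left. The 2 measures share mappability and base composition, and within experiment 1 also libraries, and the bins are neighbours. With GC content the correlations in WT of experiment 1 were 0.36 on the right and 0.71 on the left, and with distance they were 0.26 and -0.95. In WT of experiment 2 they were 0.51 and 0.67 with GC content, and 0.14 and -0.75 with distance.

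Among the 22 protein-coding genes of at least 5 kb that lie wholly in a flank, the 4 on the left ranged from 0.56 to 3.60 in density in WT of experiment 1, and the 18 on the right from 1.83 to 29.7. *Chmp7*, whose protein belongs to the ESCRT-III complex that reseals the nuclear envelope, was highest, with 25.9, 29.5 and 33.6 in experiment 1 and 26.7, 35.4 and 30.0 in experiment 2. *R3hcc1*, its neighbour nearer to the viewpoint, had 22.4, 20.8 and 20.5 in experiment 1 and 24.3, 20.6 and 28.9 in experiment 2. *Phyhip*, which encodes a partner of phytanoyl-CoA hydroxylase, had 14.05, 16.9 and 16.7 in experiment 1 and 18.8, 18.7 and 15.2 in experiment 2. *Phyhip* starts 954 kb from the viewpoint, more than 3 times as far as *Rhobtb2*, yet the 3 *Phyhip* values lay above every *Rhobtb2* value of their experiment (5.72, 7.57 and 8.73 in experiment 1; 8.03, 9.38 and 9.85 in experiment 2).

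After *Rhobtb2*, the next 4 genes in order were *Fam160b2*, *Bin3*, which encodes a membrane-binding BAR protein, *Tnfrsf10b*, a death receptor for TRAIL, and *Hr*, a nuclear corepressor needed for hair growth. Their means in WT of experiment 1 were 6.36 ± 0.264, 5.97 ± 0.634, 5.29 ± 1.17 and 5.23 ± 0.660, and neighbours in that order did not differ beyond their spread. The lowest on the right were *Pebp4*, *Ppp3cc*, a catalytic subunit of calcineurin, and *Slc39a14*, a zinc and manganese transporter, at 2.22 ± 0.252, 2.06 ± 0.292 and 1.83 ± 0.620. On the left, *Stc1*, which encodes the secreted hormone stanniocalcin, had 2.86, 3.91 and 4.03. The 3 farther genes, *Adam28*, *Adamdec1* and *Adam7*, all of the ADAM metalloprotease family, had 0.82 ± 0.119, 0.77 ± 0.118 and 0.56 ± 0.228. Each of these 3 lay below all 18 right genes, although *Hr* and *Fam160b2* are farther from the viewpoint.

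**Figure D2:**
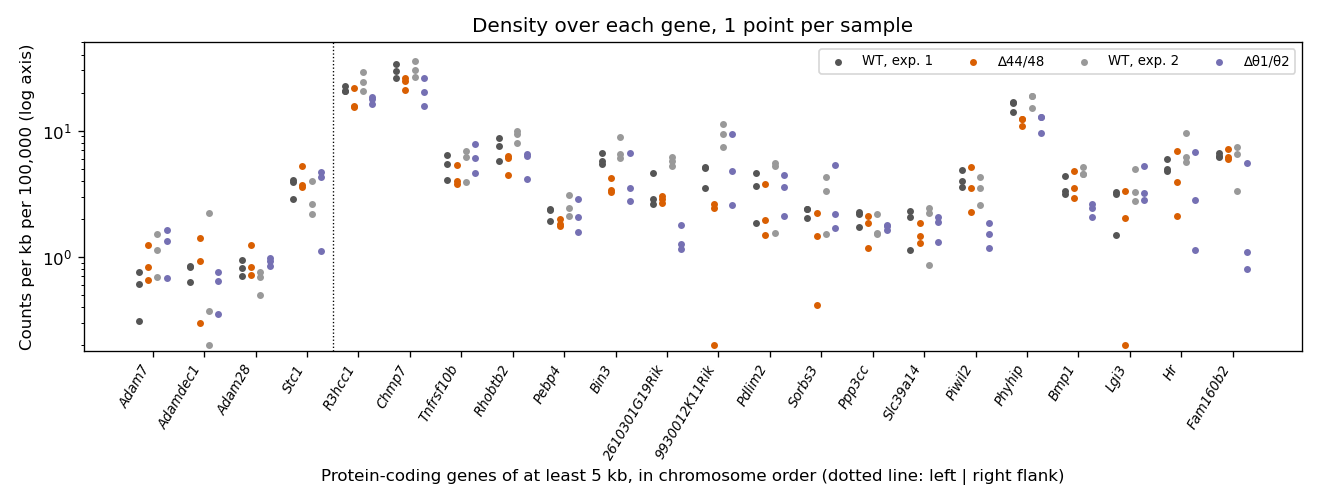
Density over each protein-coding gene of at least 5 kb in chromosome order, 1 point per sample, on a log axis (values under 0.2 are drawn at 0.2), in both WT groups, ∆44/48 and ∆θ1/θ2. By the means of WT of experiment 1, *Chmp7* is highest, *Phyhip* stands out among the distant right genes, and the 3 ADAM genes of the left flank are lowest. Single samples do not all keep this order.

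The question for the edited genotypes is whether contacts of an unedited locus on another chromosome stayed as in WT. In the left flank no difference was found in any of them. The flank took 2.40%, 2.48% and 2.47% of the scaling total in ∆44/48, 2.33%, 2.86% and 2.42% in ∆θ1, 2.43%, 2.27% and 2.52% in ∆θ2, and 2.38%, 2.43% and 2.33% in ∆θ1/θ2. No group stood clear of its WT. The log2 fold changes over WT were -0.03 (95% interval -0.13 to 0.08) in ∆44/48, 0.07 (-0.29 to 0.43) in ∆θ1, -0.02 (-0.27 to 0.24) in ∆θ2 and -0.03 (-0.29 to 0.23) in ∆θ1/θ2, with adjusted p from 0.725 to 0.903 in edgeR's quasi-likelihood test over 7 stretches of the chromosome. The 95% intervals here and below use a normal approximation, which makes them too narrow for groups of 3 samples. The 3 deletions of experiment 2 share their WT samples, so these comparisons are not independent. With TMM factors the ∆θ1 value turned to -0.67, past the threshold (edgeR adjusted p = 7.37e-04).

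In the right flank the log2 fold change was negative in 3 of the 4 edited genotypes, and the difference passed the threshold (adjusted p of 0.01) in ∆θ1/θ2. There the flank took 3.00%, 3.71% and 3.45%, all below the 3 WT samples of experiment 2, for a log2 fold change of -0.57 (SE 0.121, 95% interval -0.81 to -0.34, edgeR adjusted p = 7.82e-05; two-sided exact permutation p = 0.1, the smallest for 3 against 3). In ∆44/48 it took 3.95%, 3.78% and 3.35%, again all below the WT of its experiment, for -0.29 (95% interval -0.49 to -0.09, edgeR adjusted p = 0.0805; exact permutation p = 0.1). In ∆θ2 it took 3.54%, 3.96% and 4.80%, of which 2 samples lay below every WT sample, for -0.30 (SE 0.152, edgeR adjusted p = 0.137). In ∆θ1 it took 5.14%, 5.61% and 5.03%, for 0.08 (SE 0.148, edgeR adjusted p = 0.812), a sign that turned with TMM factors (-0.68).

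Other stretches of the chromosome moved in the same samples. In ∆θ1/θ2, counts between the viewpoint and *Loxl2* were higher (log2 0.34, edgeR adjusted p = 3.1e-07), and counts on the chromosome beyond 69 and 71 Mb were lower on the left (-0.31, adjusted p = 4.15e-05) and on the right (-0.41, adjusted p = 7.82e-05). With only the counts beyond 69 and 71 Mb as the scale, an alternative chosen after seeing the data, the right flank of ∆θ1/θ2 was at -0.23 (adjusted p = 0.103). Its left flank was then at 0.32 (adjusted p = 0.0102). DESeq2 gave -0.26 on the right (adjusted p = 0.0315) and 0.28 on the left (adjusted p = 0.0270). TMM factors gave -0.29 on the right (edgeR adjusted p = 0.00776) and 0.25 on the left (adjusted p = 0.0545). The size of the difference on each side of ∆θ1/θ2 thus depended on the scale. In the right flank of ∆44/48 the counts beyond 69 and 71 Mb as the scale gave -0.22 (adjusted p = 0.0245). DESeq2 gave -0.21 there (adjusted p = 0.00264), past the threshold. *Loxl2*, which is not in the scaling total and borders the right flank, had 0.915% to 1.34% of that total in the WT samples and 5.11% to 8.60% in all 12 edited samples. Its part in the right flank's values was not tested.

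**Figure D3:**
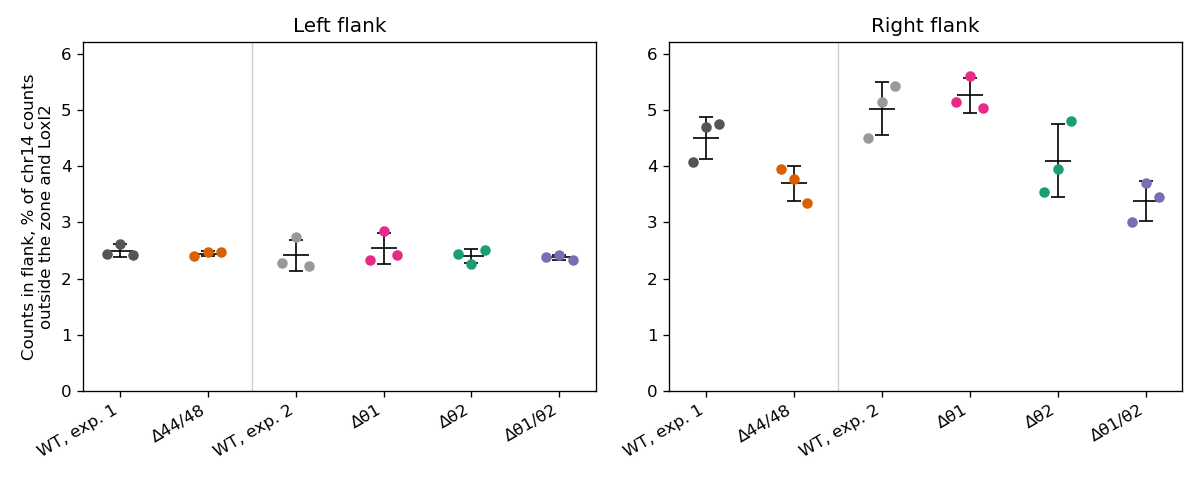
Counts in the left and right flank as a percentage of the chromosome 14 counts outside *Loxl2* and the zone of 1 kb at the viewpoint, for each sample (points) with the mean and SD of its group (n = 3). Left values lie between 2.22% and 2.86% in all groups, and right values are lowest in ∆θ1/θ2, at 3.00% to 3.71%.

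The effects of ∆44/48 and ∆θ1/θ2 on the right flank were not shown to differ. The log2 difference between them was 0.28 (edgeR interaction term, adjusted p = 0.174), and on the left it was 0.00 (adjusted p = 0.99). With TMM factors it was -0.01 on the right (adjusted p = 0.971) and -0.27 on the left (adjusted p = 0.45). Of 50 kb bins, 0 of 1416 tested passed (0% of them).

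Bin by bin, the negative values of the right flank were spread over most of its length. In ∆44/48 all 18 right bins had a negative log2 fold change, with a median of -0.29, against -0.10 over all 1252 bins tested, of which 57.7% were negative. None of them passed the threshold (0.24% of all bins did, and DESeq2 called none in the flanks). At an unadjusted p under 0.05 there were 4 of the 18, against 4.79% of all bins. In the left flank 7 of 16 bins were negative, with a median of 0.01. In 4 right bins all 3 ∆44/48 samples lay below all WT samples, as in 9.42% of all bins tested. They included the *Bin3* bin (log2 -0.63, edgeR adjusted p = 0.422).

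In ∆θ1/θ2, 15 of 18 right bins were negative, with a median of -0.50, against -0.36 over all 692 bins tested, of which 69.8% were negative. On the left, 9 of 16 were negative, with a median of -0.01, above that of all bins. The test called 2 right bins lower, while it called 1.3% of all bins. The first was the outermost bin, over *Hr* and *Fam160b2*, with densities of 7.62, 7.66 and 9.97 in WT and 4.07, 2.56 and 4.37 in ∆θ1/θ2 (log2 -1.18, SE 0.233, edgeR adjusted p = 6.52e-05). The second was the innermost bin, over *R3hcc1* and *Chmp7*, with 24.4, 27.0 and 26.6 in WT and 14.3, 20.9 and 16.4 in ∆θ1/θ2 (log2 -0.61, SE 0.150, edgeR adjusted p = 0.00414). In both bins the groups did not overlap. Neither was called by DESeq2, with TMM factors, or with the counts beyond 69 and 71 Mb as the scale.

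The same bins were also low in ∆θ2, in which no flank bin passed the threshold (0.37% of 810 bins did). There the outermost bin had 3.75, 5.54 and 4.47 (log2 -0.85, edgeR adjusted p = 0.0277) and the innermost 15.6, 18.1 and 22.1 (log2 -0.51, edgeR adjusted p = 0.0537), all below the WT samples that these comparisons share. The medians were -0.18 on the right and -0.14 on the left, against -0.05 over all bins. DESeq2 called no flank bin, and 4 right bins and 1 left bin had an unadjusted p under 0.05, against 6.67% of all bins. In ∆θ1, with 0.574% of 523 bins called, no flank bin passed, and DESeq2 called none. At an unadjusted p under 0.05 there were 3 left and 2 right bins, against 7.27% of all bins. Of its bins, 12 of 16 on the left and 6 of 18 on the right had a sample with a count of 0.

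**Figure D4:**
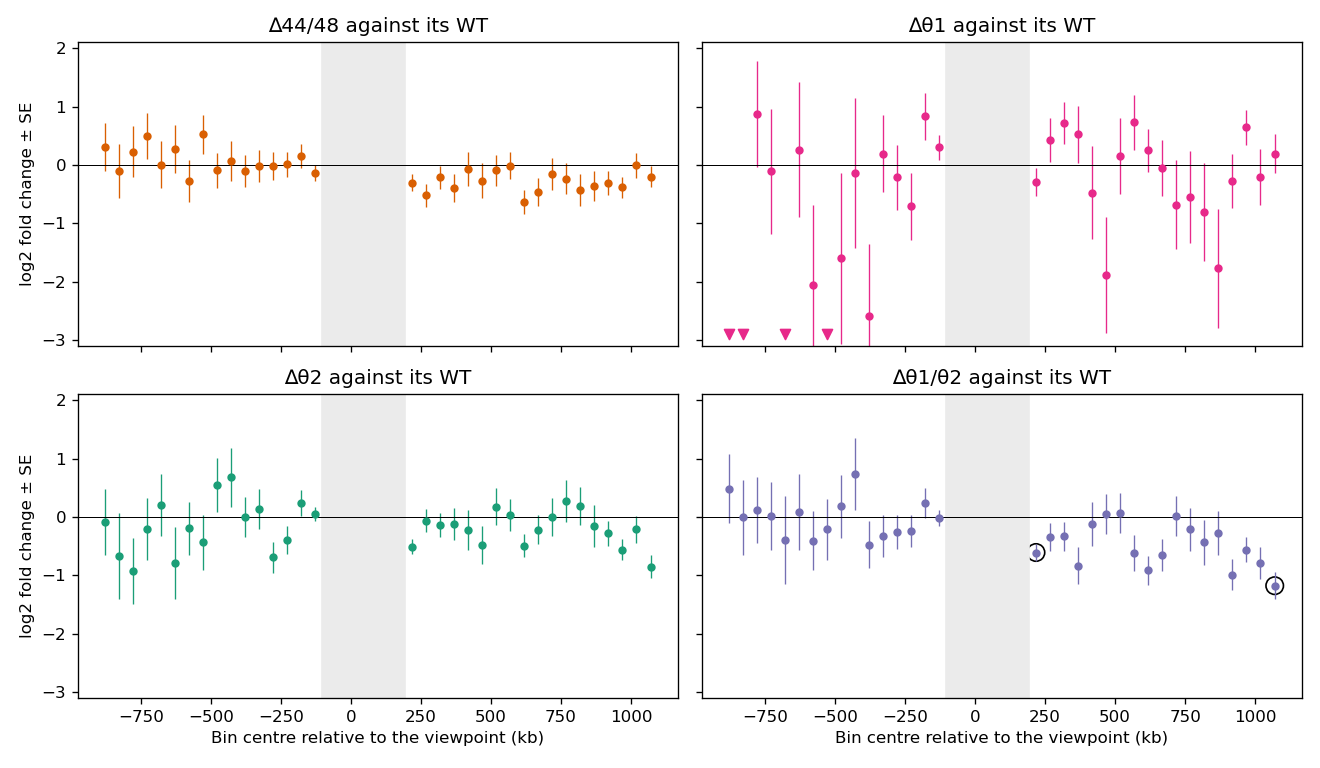
Log2 fold change over WT of the same experiment in each 50 kb bin of both flanks (points, edgeR estimate; bars, SE), against distance from the viewpoint, with the grey band marking the locus between the flanks. Rings mark the 2 called bins of ∆θ1/θ2, triangles bins below -3 in ∆θ1, and all 18 right bins of ∆44/48 lie below 0.

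Genes were tested as well, on fragments that the bins also hold, so their values are not independent of the bins. The 2 did not always go together. In the left flank of ∆θ1, 11 of 16 bins were negative (median -0.46) and the 4 genes were positive (median 0.45). In ∆44/48 all 18 right genes were negative (median -0.31, against -0.16 over all genes tested), and the 4 left genes were positive (median 0.30). None passed, while 0.393% of 509 genes did, and 1 right gene had an unadjusted p under 0.05, against 6.88% of all genes. This was *Bin3*, with 6.67, 5.78 and 5.45 in WT and 3.24, 4.23 and 3.41 in ∆44/48 (log2 -0.70, edgeR adjusted p = 0.124). The groups did not overlap. *Phyhip* was also below all WT samples, with 10.8, 12.3 and 12.4 (log2 -0.40, edgeR adjusted p = 0.684).

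In ∆θ1/θ2, 17 of 18 right genes were negative (median -0.61, against -0.35 over all genes), and none passed, while 0.785% of 382 genes were called. At an unadjusted p under 0.05 there were 9 of the 18, against 10.5% of all genes. The exception was *Tnfrsf10b*, with 6.01, 4.64 and 7.80 against 6.93, 6.15 and 3.88 in WT. *Chmp7* had 15.5, 26.3 and 20.4 (log2 -0.60, edgeR adjusted p = 0.301) and *R3hcc1* 16.3, 18.6 and 17.8 (log2 -0.48, edgeR adjusted p = 0.382), each below every WT sample. The smallest adjusted p, 0.0355, belonged to *2610301G19Rik*, now named *Ccar2*, a regulator of deacetylation, which was singled out after its values were seen. Its densities were 5.74, 6.12 and 5.25 in WT and 1.80, 1.16 and 1.27 in ∆θ1/θ2 (log2 -1.94). The gene is 15.6 kb long, so at scaling totals of 15151 to 28494 the ∆θ1/θ2 values rest on few counts.

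In ∆θ2, 16 of 18 right genes were negative (median -0.25, against -0.10 over all genes), and 0.458% of 437 genes were called, none of them in the flanks. *Phyhip* had the smallest adjusted p, with 12.7, 7.51 and 7.13 against 18.8, 18.7 and 15.2 in WT (log2 -0.92, edgeR adjusted p = 0.178). In ∆θ1, 10 of 18 were negative (median -0.04, against -0.07), and 0.318% of 314 genes were called, none in the flanks. DESeq2 called no flank gene in any comparison. At an unadjusted p under 0.05 there were 3 right genes in ∆θ2 and 2 in ∆θ1, against 8.01% and 9.55% of all genes, and none of the 4 left genes in any genotype. Among genes under 5 kb, *Nkx2-6* at the inner edge of the left flank, chosen after its values were seen, had densities of 17.4, 41.0 and 33.2 in WT and 70.7, 133 and 70.5 in ∆θ1 (log2 1.59, SE 0.462, edgeR adjusted p = 0.0640). All 3 ∆θ1 samples lay above the WT samples, and the difference did not pass the threshold. The gene is 3.96 kb long, so at scaling totals of 1073 to 3213 the ∆θ1 values rest on few counts. The whole 50 kb bin that holds it had 50, 41 and 16 counts in ∆θ1 (log2 0.30, edgeR adjusted p = 0.557).

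Because the ratio of left to right counts within a sample needs no scaling total, it was compared between genotypes as well. In ∆44/48 the right exceeded the left 2.52-fold, 2.52-fold and 2.34-fold, below every WT sample of experiment 1. The log2 ratio of left to right rose from -1.70 ± 0.0802 in WT to -1.30 ± 0.0609 in ∆44/48, higher by 0.40 (exact permutation p = 0.1, two-sided). Leaving out any single sample kept the difference between 0.36 and 0.44. In ∆θ1/θ2 the right exceeded the left 2.41-fold, 3.15-fold and 2.71-fold, a log2 ratio of -1.45 ± 0.194 against -1.88 ± 0.289 in WT. The difference was 0.42 (exact permutation p = 0.2), or 0.29 to 0.58 with any single sample left out, and 2 of the 3 samples lay above every WT sample. In ∆θ2 the difference was 0.14 (exact permutation p = 0.7), or 0.007 to 0.29 with any single sample left out. In ∆θ1 the values were -2.72, -2.24 and -2.48, a difference of -0.60 in the other direction (exact permutation p = 0.1), on 7 to 23 left counts a sample. With any single sample left out it was -0.74 to -0.45.

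**Figure D5:**
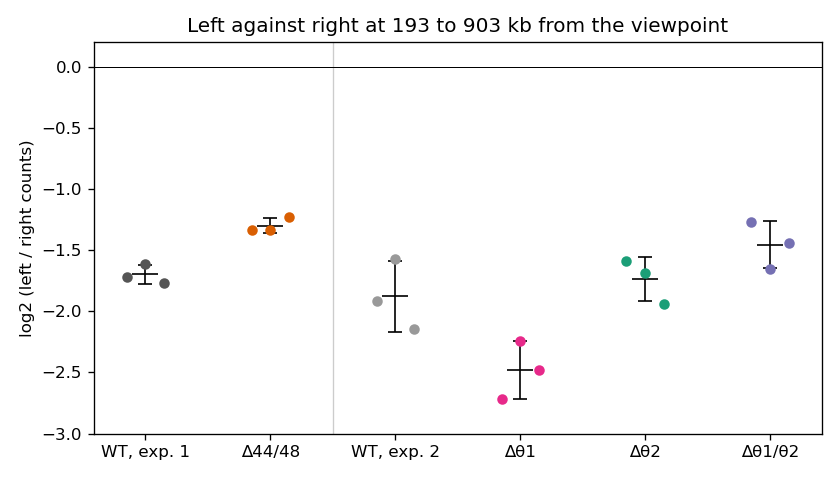
Log2 ratio of left to right counts at 193 to 903 kb from the viewpoint in each sample (points) with the mean and SD of its group (n = 3). All 18 values are below 0, the 3 ∆44/48 samples lie above their WT, and the 3 ∆θ1 samples lie below theirs.

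The steepness of decay did not separate the genotypes from WT, apart from ∆θ1 on the left. There the exponents were -3.33, -2.52 and -2.78, against -2.17 ± 0.124 in WT (exact permutation p = 0.1), and a least-squares fit turned the difference from -0.70 to 0.15. For the other 7 comparisons the differences ran from -0.14 to 0.17, with exact permutation p of 0.2 to 1. Without the most counted bin the right differences turned to -0.31 in ∆θ1 and -0.26 in ∆θ2, and moved to -0.34 in ∆θ1/θ2.

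Single fragments carried few counts. Over all 18 samples the median was 2 in a left fragment and 6 in a right one, and 630 left and 227 right fragments had none. The most counted right fragment, at the start of *Chmp7* (chr14:70131734-70132708), had 14, 22 and 26 counts in WT of experiment 1, and the most counted left one (chr14:69799185-69800499) had 21, 14 and 13. With at least 10 counts, 164 left and 330 right fragments were tested in ∆44/48, 20 and 21 in ∆θ1, and 77 and 108 in ∆θ2, and edgeR and DESeq2 called 0 of them. At an unadjusted p under 0.05 there were 5 left and 9 right fragments in ∆44/48, 2 and 1 in ∆θ1, and 0 and 6 in ∆θ2, against 16.4%, 15.3% and 27.5% of all fragments tested. Past the threshold edgeR called 6.85%, 0.222% and 11.7% of all fragments. *Loxl2* rose in every edited genotype (log2 2.55 to 2.87). Its part in the shares given for all fragments, bins and genes was not tested. In ∆θ1/θ2 edgeR called 1 of 62 left fragments and 0 of 70 right ones, against 9.57% of all, and DESeq2 called none. At an unadjusted p under 0.05 there were 3 left and 5 right ones, against 31.6% of all. It is the left fragment chr14:69758143-69758522 shown above, with 0, 5 and 13 counts in WT and 1, 0 and 0 in ∆θ1/θ2 (log2 -4.14, SE 1.18, edgeR adjusted p = 0.00638). The groups overlapped in raw counts, and without the WT sample of 13 counts the call was lost.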

How the data were processed

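NG Capture-C was performed by the authors in 18 samples. Per the labels and the study's methods, reads were trimmed with Trim Galore, aligned to mm9 with Bowtie and deduplicated, and unique interaction counts per viewpoint and DpnII fragment were deposited as raw counts without normalisation. All 133826 listings of chromosome 14 from this viewpoint matched a DpnII digest of NCBIM37. Fragments went to the interval holding their midpoint. The members, bins and gene lists were chosen with earlier results of these data known.

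Counts within 1 kb of the viewpoint fragment were left out, and densities are counts per kb per 100000 chromosome 14 counts outside *Loxl2*. Stretches, 50 kb bins, genes and fragments with at least 10 counts were tested with edgeR 4.0.16 in R 4.3.3 (quasi-likelihood, Benjamini-Hochberg over all features tested, adjusted p of 0.01), with DESeq2 1.42.0 as an alternative, each genotype against WT of its experiment. P-values measure only the spread between samples. The paper calls its Capture-C replicates biological, but the labels name no mice, so the spread may be partly technical. Intervals at 95% use a normal approximation from the SE, which is too narrow for groups of 3 samples. Genes came from the GENCODE annotation of NCBIM37, and those named are the 8 highest and 3 lowest per side and the first and last. Bins named are the innermost, outermost, 3 densest, those at the largest steps and those called. Tested on simulated data with log2 changes of 1, edgeR recovered 13.0% of 200 changed bins among 1252 at the depth of ∆44/48 and 9.83% of 173 among 692 at that of ∆θ1/θ2, with 0 false calls. Python 3.11.15, statsmodels 0.14.6 and scipy 1.17.1 gave the decay and permutation tests. Replicate numbers, checked by the correlation of same-numbered deviations (-0.08 to 0.06), did not pair samples.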

Additional observations from a re-analysis of the deposited data

How the results depend on the processing

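The left flank totals stayed past no threshold under every alternative in ∆44/48, ∆θ2 and ∆θ1/θ2, and the right flank totals of these 3 genotypes stayed negative under every alternative. In ∆θ1, the shallowest group, TMM factors turned both totals past the threshold, to -0.67 on the left and -0.68 on the right. The right flank of ∆44/48 passed the threshold with DESeq2 (-0.21) and that of ∆θ2 with all counts of the viewpoint as library size (-0.50). The call in the right flank of ∆θ1/θ2 was lost with DESeq2 (-0.26) and with the counts beyond 69 and 71 Mb as library size (-0.23), and it held without any single sample (-0.65 to -0.49). The cause of these changes was not tested.

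The 2 bins called in ∆θ1/θ2 became 4 at a threshold of 0.05 and with all chromosome 14 counts, the counts within 1 Mb or all counts of the viewpoint as library size. They became 1 with a zone wider by 5 kb, all groups of experiment 2 in one fit, 10 kb bins or at least 1 count. They became 0 with DESeq2, TMM factors, 25 kb bins or the counts beyond 69 and 71 Mb, and 0 to 3 when 1 sample was left out, with 0 without WT replicate 3. The 0 bins of ∆θ2 became 1 at 0.05, 2 with all chromosome 14 counts or all counts of the viewpoint, and 0 to 2 when 1 sample was left out, with 2 without ∆θ2 replicate 3. With TMM factors 1 bin was called in ∆θ1. At 0.05, 1 gene was called in ∆θ1/θ2 and 1 fragment in ∆44/48, where leaving out 1 sample gave 0 to 1 (1 without ∆44/48 replicate 1 or 3). The 1 fragment of ∆θ1/θ2 became 3 at 0.05, 2 with TMM factors, 0 with DESeq2, at least 30 counts or at least 1 count, and 0 to 1 when 1 sample was left out (0 without WT replicate 2 or 3 or ∆θ1/θ2 replicate 2 or 3).

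With the replicate number as a block, 1 bin was called in ∆θ2 and 3 in ∆θ1/θ2, the right flank of ∆θ1/θ2 was at -0.57, and the fragment of ∆θ1/θ2 was not called (0). The samples share only a number, and the block changed no other call.

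The decay difference of ∆θ1 on the left moved to 0.15 with least squares. Without the most counted bin, the right differences moved to -0.31 in ∆θ1, -0.26 in ∆θ2 and -0.34 in ∆θ1/θ2. The left to right ratio of WT moved to -1.44 in the narrower window. Depth limits ∆θ1 throughout, and outer left bins held few counts in every group of experiment 2.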
